A study of Acer rubrum with 15 samples.

Results

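Among the small RNAs sequenced from leaves of red maple (Acer rubrum L. 'Autumn Blaze'), 485 of 7972 predicted small interfering RNAs (siRNAs), or 6.08%, were found mainly in warm leaves. They were chosen by their own read counts. An siRNA was taken as a member when it had reads in at least 4 of the 6 libraries of warm leaves and in at most 1 of the 6 libraries of cool leaves. The contrast between warm and cool leaves is therefore a description of the choice and is given without a test.

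Plant siRNAs are cut by Dicer-like enzymes from double-stranded RNA and are loaded into ARGONAUTE proteins, which they guide to matching RNA or DNA. Some direct DNA methylation and silence transposons and repeats, and others, such as the trans-acting siRNAs, cleave messenger RNAs. In Nicotiana benthamiana, siRNAs made from viruses and transgenes are known to accumulate less at low temperature. The siRNAs of the deposited table carry a running number as their only identity (novel_sir4549, for example). No sequence, length, genome position or target stands beside them in the table, so none is printed here.

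The study asked how light and temperature act on leaf colour change in cuttings. Warm leaves had 14 days at 30 °C by day and 20 °C by night under full light (group CC, 100%) or low light (CL, 40%), and cool leaves had 14 days at 15 °C by day and 5 °C by night under full light (LC) or low light (LL). Control leaves were untreated, were taken on day 0 and are described as mixed. Before sampling, the cuttings stood in a greenhouse at 25 °C to 30 °C, and no light level is given for day 0. Each of the 5 groups has 3 libraries, which the labels call biological replicates. Nothing says whether different plants were used, and p-values cover no more than the spread among these libraries, which may be technical. The small-RNA table has no leaf marker genes, so the tissue label was not checked against any.

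Depth and the way the table was made bear on every count of these siRNAs. The libraries held 15652847 to 20822592 counted reads, the fewest in LC (15652847 to 16291802) while the warm groups held 19018269 to 20822592, a range that also takes in LL replicate 3 (20613304). Every siRNA count was either 0 or at least 10 reads, so a 0 can stand for up to 9 reads. An siRNA with reads in a library is called listed there. The listing minimum came to 0.480 to 0.526 CPM (reads per 1000000 counted reads of the library) in warm libraries and to 0.485 to 0.639 CPM in cool ones, with the LC libraries (0.614 to 0.639 CPM) needing the highest level for an siRNA to be listed. Libraries also differed in how many of all 7972 siRNAs they listed. CC replicate 1 and the CL libraries listed 5025 to 5097, CC replicates 2 and 3 listed 3787 and 3931, LL 3820 to 4098, Control 3232 to 3655 and LC 2908 to 3286.

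The warm siRNAs were rare. Over the 6 warm libraries their mean was 7 to 44.5 reads, with a median of 12, which is close to the listing minimum. Only 44 of 485 had a warm mean of at least 20 reads. In CPM the warm mean had a median of 0.588 and a highest value of 2.16. With every cool 0 set to 9 reads, the warm mean was above the cool mean in 289 of 485 members, and more than 2-fold above it in 27. For the other 196 members, the hidden reads would be enough to close the gap.

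The mirrored rule, with reads in at least 4 cool libraries and at most 1 warm library, found 31 siRNAs (0.389% of all). Rules of the same form found 297 siRNAs in shaded against full-light leaves and 53 in full-light against shaded leaves. To take depth out of the listing, an siRNA was also counted only at or above 0.639 CPM, the level of 10 reads in the smallest library. The rule then found 305 siRNAs mainly in warm leaves and 45 mainly in cool leaves. Of the 485 members, 181 met the rule at this common level and 304 did not, while 124 further siRNAs met it. With the thresholds kept and 1 warm library left out, which asks for reads in 4 of the remaining 5, the rule found 243 siRNAs without CC replicate 1, 243, 230 and 237 without CL replicates 1, 2 and 3, and 414 and 411 without CC replicates 2 and 3. Of the members, 51 were among the 297 shaded siRNAs (10.5% of the members and 17.2% of the shaded set), and 3 were among the 53 full-light siRNAs (0.619% and 5.66%).

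At the edge of the rule, the 140 members with 4 warm libraries and 1 cool library had a median warm mean of 10.2 reads. Just outside it, 419 siRNAs with 3 warm libraries and at most 1 cool library had a median warm mean of 6.67 reads, and 357 with at least 4 warm and 2 cool libraries had one of 14.8 reads. Inside the rule, 283 members were listed in 4 warm libraries, 142 in 5 and 60 in 6. No cool library listed 214 of them, and exactly 1 listed the other 271. That single cool library was LC replicate 1 for 69 members, LC replicate 2 for 11, LC replicate 3 for 6, and LL replicates 1, 2 and 3 for 50, 58 and 77. LC replicate 1 thus stood apart from the other LC libraries in these siRNAs.

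The warm siRNAs were carried by the shaded warm leaves and by 1 of the full-light warm libraries. CL libraries 1, 2 and 3 listed 436, 452 and 436 of the 485 members, and CC libraries 1, 2 and 3 listed 440, 216 and 222. In these counts CC replicate 1 lay within the CL range, and CC replicates 2 and 3 lay far below it. CC replicate 1 thus went against the other libraries of its label. The table holds nothing by which its label or preparation could be checked, so it is kept as labelled and CL is set against CC both with and without it. In whole leaves, fewer cells that make an siRNA and fewer copies per cell cannot be told apart. Summed over all members, their reads made up 395, 399 and 395 CPM in CL and 402, 163 and 145 CPM in CC. Control held 109, 104 and 131 CPM, LL 35.6, 37.9 and 46.4 CPM, and LC 63.1, 8.54 and 8.37 CPM. As a share of siRNA reads, members made up 1.33%, 1.38% and 1.23% in CL and 1.08%, 0.569% and 0.553% in CC. By that share CC replicate 1 lay below the CL range and above CC replicates 2 and 3. CC replicate 1 also held the most siRNA reads of all libraries, 769497. CC replicates 2 and 3 held 591029 and 526587, and CL 566287 to 666296. The part of siRNA depth was not tested. At the common level of 0.639 CPM, CC replicates 2 and 3 held 101 and 104 members, within the Control range of 98 to 118, while CC replicate 1 held 290 and CL 298 to 313. The share of all siRNAs listed was also higher in CC replicate 1 and CL (63.0% to 63.9%) than in CC replicates 2 and 3 (47.5% and 49.3%), and its part in the members' pattern was not tested.

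**Figure D1:**
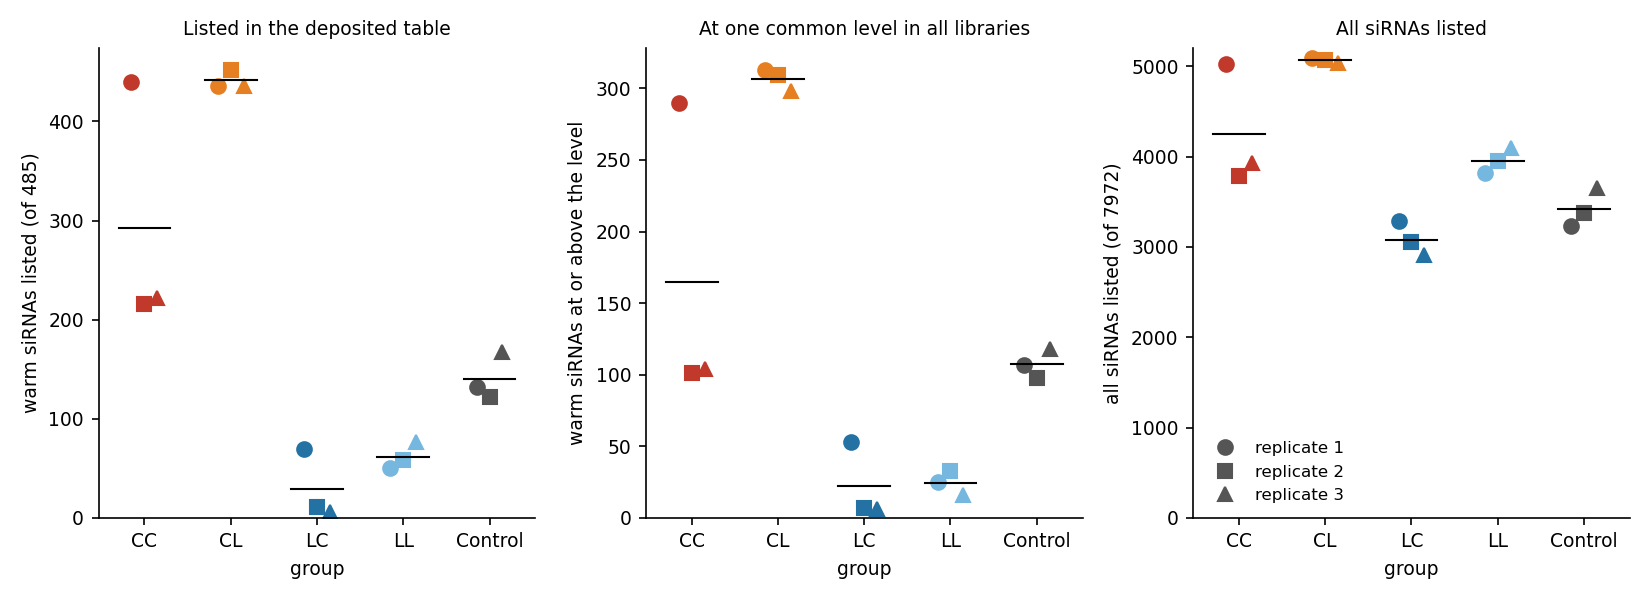
Number of warm siRNAs listed in each library (left), number at or above 0.639 CPM (middle) and number of all 7972 siRNAs listed (right), by group; points are libraries, marked by replicate, and black lines are group means. CC replicate 1, with 440 members, sits with the CL libraries and apart from CC replicates 2 and 3, with 216 and 222.

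Within the members, shaded and full-light warm leaves (CL against CC) are compared as a description. The rule pools the 6 warm libraries, but it is not neutral between them. It asks for reads in at least 4, and the CL libraries listed more of all siRNAs than CC replicates 2 and 3, so the choice itself lets in members through CL. Part of the difference between the members and all siRNAs is set in this way. In the warm regime most members had a higher mean in shade. The mean was higher in CL than in CC for 382 of 485 members (78.8%), against 57.5% of all siRNAs. With CC replicate 1 left out it was higher in 420 (86.6%), against 60.6% of all siRNAs. The median of the members' means was 0.751 CPM in CL and 0.427 CPM in CC. All 3 CL libraries listed 366 members and all 3 CC libraries listed 99. Among the uneven patterns, 191 members were listed in 3 CL libraries and 1 CC library, and 12 in 3 CC libraries and 1 CL library. These listing counts follow the choice and were not made over all siRNAs, so nothing is read from them. In 113 members (23.3%) the 3 CL libraries lay above the 3 CC libraries, against 13.2% of all siRNAs, and in 8 (1.65%) they lay below, against 4.79% of all siRNAs. Without CC replicate 1 the first count was 267 members (55.1%), against 22.5% of all siRNAs.

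No single member passed the test between CL and CC. By the quasi-likelihood test of edgeR, with p-values adjusted by Benjamini-Hochberg over all 5252 siRNAs tested, among them 457 members, 0 members were higher and 0 lower at an adjusted p under 0.05, and the lowest adjusted p of a member was 0.361. The count was also 0 at an unadjusted p under 0.05, against 14.5% of all siRNAs. The rule asks for reads in at least 4 of 6 warm libraries, so every member had reads in both CC and CL. An siRNA listed in only 1 of these groups could not be a member. The choice thus limits the difference between CL and CC, and nothing is read from the 0 against 14.5%. With CC replicate 1 left out the count was 0 at the adjusted threshold. DESeq2 called 0 members too, but gave an adjusted p to only 4 of the 485. Over all siRNAs 0.248% were called higher in CL and 0.533% lower, or 13 and 28 siRNAs, a split that turned to 20 and 14 with library size as the only scaling, 14 and 18 with relative-log-expression factors and 10 and 9 with the total of the whole table as library size. The step from a 0 to 10 or more reads widens the spread that this test sees, with a biological coefficient of variation of 0.846. An alternative with every 0 set to 9 reads was added after seeing the data and removes the spread among unlisted values. It can make the spread too small, so its calls may be too many. Over all siRNAs its calls were 272 higher and 242 lower in CL. Of 457 members, 39 (8.53%) were higher in CL and 7 (1.53%) lower, against 5.18% and 4.61% of all siRNAs tested. With CC replicate 1 also left out, 37 members (8.10%) were higher and 3 (0.656%) lower, against 4.66% and 3.62%.

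**Figure D2:**
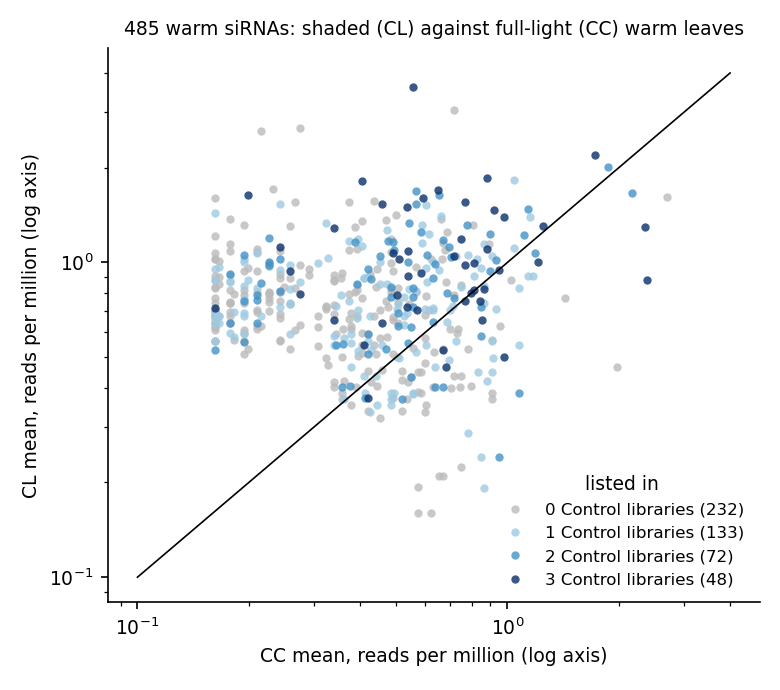
Mean level of each of the 485 warm siRNAs in CL (vertical, CPM, log axis) against CC (horizontal, CPM, log axis), each over 3 libraries with a 0 taken as 0; the colour gives the number of Control libraries that list the siRNA, and the line marks equal means. Above the line lie 382 members, and the columns of points at the left are members listed in 1 CC library.

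The most abundant members showed which warm libraries held them. novel_sir4253 had 70, 90 and 58 reads in the CL libraries and 22, 0 and 12 in the CC libraries. It stood at 3.60 ± 0.77 CPM (SD, n = 3) in CL and 0.555 ± 0.535 CPM in CC, at least 5.13-fold higher in CL with the 0 set to 9 reads. The CL and CC libraries did not overlap, but the adjusted p by edgeR was 0.361 (0.000992 to 0.627 over all alternatives, passing only with every 0 set to 9 reads).

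novel_sir7507 had 67, 75 and 42 reads in CL and 19, 13 and 12 in CC, 4.25-fold higher in CL (adjusted p by edgeR = 0.652, 0.00133 to 0.983 over all alternatives). Its reads were at 0 in Control and LC, with 13 reads in LL replicate 1. novel_sir702 had 40, 48 and 75 reads in CL, 17 in CC replicate 1 and none listed elsewhere (adjusted p by edgeR = 0.487, 0.000554 to 0.784 over all alternatives). novel_sir7064 had 45, 44 and 70 reads in CL, 13 in CC replicate 3 and none listed elsewhere (adjusted p by edgeR = 0.478, 0.00032 to 0.778 over all alternatives). With each 0 set to 9 reads, CL stood at least 4.69-fold above CC for novel_sir702 and at least 5.16-fold for novel_sir7064. In each of these 3 siRNAs the CL libraries lay above the CC libraries, and each passed only with every 0 set to 9 reads. The ranges leave out DESeq2, which gave these 3 no adjusted p.

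Fewer members leaned to full light. novel_sir247 had 60, 68 and 19 reads in CC and 18, 17 and 18 in CL, 2.72-fold higher in CC (adjusted p by edgeR = 0.604, 0.0154 to 1 over all alternatives, passing only with every 0 set to 9 reads). The range leaves out DESeq2, which gave novel_sir247 no adjusted p. Its lowest CC library was barely above its highest CL library. novel_sir5067 had 77, 50 and 18 reads in CC and 30, 28 and 20 in CL, and the groups overlapped. novel_sir5213 had 96, 38 and 0 reads in CC and 39, 30 and 31 in CL, so its high CC mean came from CC replicate 1.

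In 3 other abundant members the CL and CC libraries overlapped. novel_sir4549 had 50, 45 and 37 reads in CL and 61, 22 and 23 in CC. novel_sir3864 had 35, 46 and 41 reads in CL and 72, 18 and 25 in CC. novel_sir4323 had 40, 40 and 30 reads in CL and 36, 16 and 12 in CC. In all 3 of these, CC replicate 1 was the highest CC library and CC replicates 2 and 3 lay below every CL library. The means of novel_sir4549 were 2.19 CPM in CL and 1.73 CPM in CC, those of novel_sir3864 were 2.01 and 1.87 CPM, and those of novel_sir4323 were 1.82 and 1.04 CPM. The member with the highest warm mean, novel_sir3876, was uneven within its groups. It had 14, 130 and 22 reads in CC, 0, 101 and 0 in CL, and 76 in LC replicate 3. Its libraries with many reads lay in 3 groups.

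**Figure D3:**
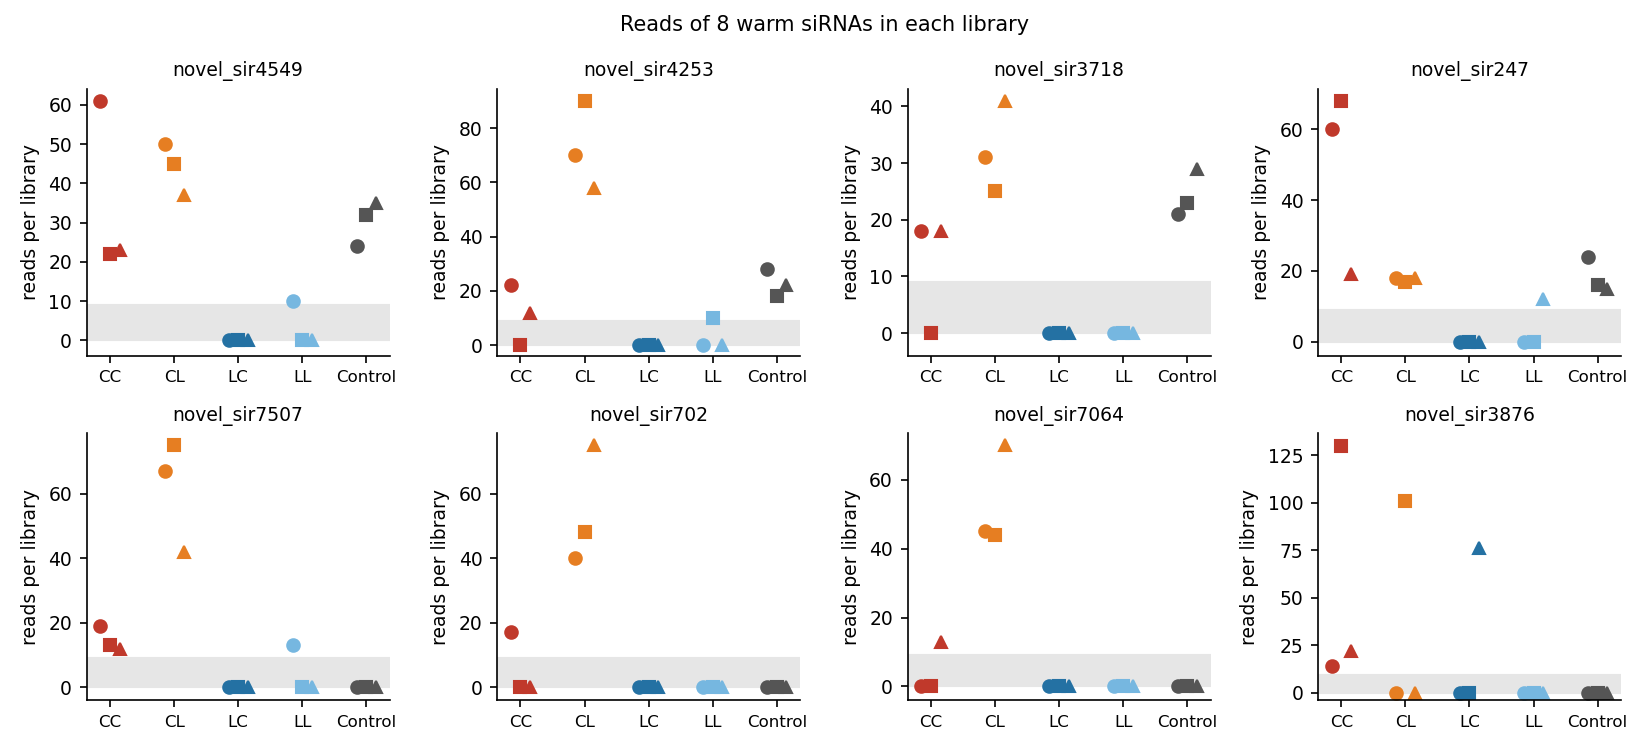
Reads per library of 8 warm siRNAs in the 5 groups; circles, squares and triangles are replicates 1, 2 and 3, and the grey band marks the 0 to 9 reads that a listed 0 can stand for. novel_sir4549, novel_sir4253, novel_sir3718 and novel_sir247 also had reads in all 3 Control libraries, and the 4 in the lower row had none listed there.

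The Control libraries were not used by the rule and show how many of the warm siRNAs were listed on day 0. They held 16440667 to 18557618 counted reads. Their listing minimum was 0.539 to 0.608 CPM, against 0.480 to 0.526 CPM in warm libraries. The members' warm mean had a median of 0.588 CPM, so a member not listed in Control may still have been present at a like level. Control libraries 1, 2 and 3 listed 132, 122 and 167 of the 485 members, a share of 28.9% ± 4.87 (SD, n = 3). That is fewer than any warm library (216 to 452) and more than any cool library (6 to 77), while the rule itself raises the warm and caps the cool counts. At the common level of 0.639 CPM, Control libraries held 98 to 118 members and CC replicates 2 and 3 held 101 and 104, so these groups overlapped. CC replicate 1 and CL held 290 to 313 at that level, and cool libraries 6 to 53. All 3 Control libraries listed 48 members (9.90%), 2 listed 72, 1 listed 133 and none listed 232 (47.8%). Of all siRNAs, 32.9% were listed in all 3 and 45.9% in none. The members' share was near that of the mirrored cool set (23.7%), the shaded set (25.0%) and the full-light set (23.3%), and these differences were not tested. Members listed in more Control libraries were also more abundant in warm leaves, with a median warm mean of 0.522 CPM for those listed in none and 0.815 CPM for those listed in all 3.

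Part of the warm siRNAs had Control levels at or above the lower of their 2 warm levels. The Control mean was above the lower of the CC and CL means in 112 of 485 members and above both in 25. These are a description, as the rule raises the warm counts and all siRNAs were not counted in this way. novel_sir3718 had 21, 23 and 29 reads in Control, 31, 25 and 41 in CL, 18, 0 and 18 in CC and none listed in any cool library. Its Control mean of 1.41 ± 0.15 CPM was at least 2.73-fold above the cool mean with each 0 set to 9 reads. novel_sir4549 had 24, 32 and 35 reads in Control against a single cool library with 10, at least 3.35-fold higher by the same reckoning.

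The other members with the most Control reads showed like values. novel_sir4253 had 28, 18 and 22 Control reads, novel_sir3772 had 20, 28 and 15, and novel_sir5067 had 25, 18 and 19. Each was listed in 1 cool library, with 10, 11 and 15 reads. Their Control means were at least 2.52-fold, 2.32-fold and 2.12-fold above the cool means. These folds, and those of novel_sir3718 and novel_sir4549, describe the choice. The siRNAs were named for the highest Control means, and the rule caps their cool counts. Over all members, the Control mean was above the cool mean with every 0 at 9 reads in 79 of 485, and more than 2-fold above it in 13. The rule caps the cool counts and so favours this direction. These counts were not made over all siRNAs, and nothing is read from them. novel_sir1468, named after its values were seen, was the evenest: it had 19, 19 and 20 reads in Control, 23, 18 and 13 in CC, 21, 21 and 25 in CL and none listed in the 6 cool libraries.

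At the other end, 120 members were at 0 in every Control and every cool library. The most abundant of these were novel_sir702 and novel_sir7064, given above. novel_sir3195 followed with 27, 18 and 10 reads in CC and 23, 23 and 23 in CL, so all 6 warm libraries listed it. novel_sir4756 had 27, 0 and 0 reads in CC and 32, 32 and 31 in CL. novel_sir3677 had 28, 0 and 14 reads in CC and 23, 33 and 20 in CL. With every 0 set to 9 reads, the warm means of novel_sir3195, novel_sir4756 and novel_sir3677 were at least 1.94-fold, 1.91-fold and 1.84-fold above Control. They were named for high warm means among members at 0 in Control, so these folds also describe the choice.

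Tests against day 0 are touched by the choice of members, which raises warm and lowers cool counts, and their counts are given as a description only. By edgeR's quasi-likelihood test, 0 of 457 members were higher and 0 lower in the mean of CC and CL than in Control, where 0.476% and 0.495% of all siRNAs were called. At an unadjusted p under 0.05 the count was 149 (32.6%), all higher, against 15.4% of all siRNAs in either direction. DESeq2 called 4 members higher, or 1.20% of the 334 to which it gave an adjusted p, against 3.5% of all siRNAs with one. In the mean of LC and LL, 25 of 457 members (5.47%) were lower than in Control and 0 were higher, against 5.62% and 1.03% of all siRNAs. The members' share was near the background in this fit, above it in some other fits and below it in others. It was 8.04% against 3.9% with no filter on low counts, 29.6% of 71 members against 10.8% with a stricter filter, 15.6% of 64 members against 7.32% with only the compared groups in the fit, and 20.7% of 237 members against 10.5% by DESeq2. The choice favours this direction, so nothing is read from these shares. Leaving out 1 library gave 8 to 27 members. Without Control replicates 1, 2 and 3 it gave 8, 14 and 10 (1.66%, 2.91% and 2.12%), against 4.15%, 4.50% and 3.64% of all siRNAs. Without LC replicate 2 or 3 it gave 13 (2.70%), against 4.93% and 4.57%. Without LL replicates 2 and 3 the share was 4.99% and 5.49%, against 4.23% and 4.71%. With the replicate number as a block it was 2.84% against 4.30%.

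The warm siRNAs were unevenly spread over the entry numbers, which run from 1 to 9213 and were not used by the rule. What sets the order of the numbers is not given in the sources used here. Of 1717 siRNAs numbered 3501 to 5500, 202 were members (11.8%), so this range held 41.6% of all members. The share was 6.46% from 1 to 1500, 3.26% from 1501 to 3500 and 4.47% from 5501 to 9213. In blocks of 500 numbers, the 4 blocks from 3501 to 5500 had 10.9% to 13.4% members and the other 15 blocks 2.07% to 8.26%. At the common level of 0.639 CPM the rule found 7.16% of the siRNAs from 3501 to 5500 and 1.97% to 4.86% of those in the other ranges. The ranges were drawn after seeing these blocks.

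In that range the cool leaves and 2 of the 3 full-light warm libraries listed fewer siRNAs, also among the siRNAs that are not members. With the members left out, LC libraries listed 31.9% to 33.3% and LL libraries 44.4% to 46.9% of 1515 siRNAs from 3501 to 5500, against 48.0% to 52.6% and 50.4% to 53.5% of 3079 siRNAs above 5500. Neither group overlapped between the 2 ranges. CC replicates 2 and 3 listed 45.9% and 44.2% of the same siRNAs from 3501 to 5500 against 51.3% and 50.9% above 5500, a drop about as large as that of LL, while CC replicate 1 listed 63.4% against 62.7%. CL libraries listed 60.8% to 61.5% against 62.7% to 64.1%, and Control libraries 41.3% to 45.9% against 42.3% to 46.5%, overlapping between the ranges. Control also listed members of that range more often than most others. Of the 202 members from 3501 to 5500, Control libraries 1, 2 and 3 listed 37.6%, 29.7% and 43.6%. Of the 144 members above 5500 they listed 20.8%, 18.8% and 20.8%, and of the 58 from 1501 to 3500 they listed 12.1%, 15.5% and 31.0%. The 3 Control libraries did not overlap between the members from 3501 to 5500 and those above 5500. From 1 to 1500 they listed 23.5%, 32.1% and 38.3% of 81 members, which overlaps with both.

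**Figure D4:**
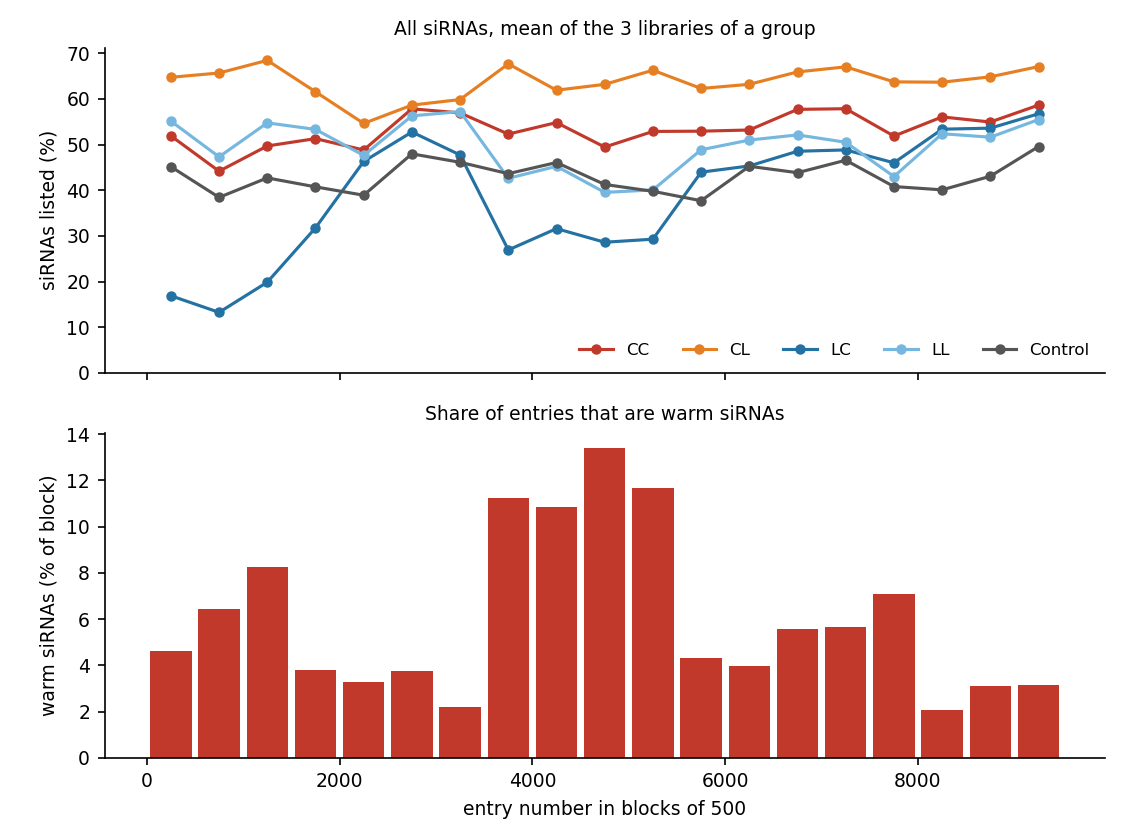
Share of all siRNAs listed in each group, as the mean of 3 libraries (top, %), and share of entries that are warm siRNAs (bottom, % of the block), in blocks of 500 entry numbers. Warm siRNAs make up 10.9% to 13.4% of the 4 blocks from 3501 to 5500, where LC stands at 26.9% to 31.6% and LL at 39.5% to 45.2%. The CC line averages CC replicate 1, which listed more in this range than above 5500 (67.1% against 63.9%), with CC replicates 2 and 3, which listed less (46.2% and 44.0% against 50.9% and 50.7%).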

How the data were processed

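Small RNA was measured in 15 leaf libraries, with 3 libraries for each of 5 groups read from the titles. The authors deposited 1 table of raw read counts per small-RNA entry, which was used here, and TPM values that the authors computed from these counts per 1000000 reads of the library, which were not used. Library preparation used a small-RNA kit and PAGE size selection, per the labels' protocols. Aligner, genome build, siRNA prediction and the handling of multiply matching reads are not stated there or in the table. The 7972 rows of type siRNA were analysed, and other rows entered only the library totals.

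Levels are CPM of all reads in the table. In edgeR 4.0.16 (R 4.3.3), siRNA counts passing filterByExpr with default settings (5252 siRNAs, 457 of the 485 members) were scaled by TMM (factors 0.757 to 1.21) and fitted with 1 mean per group over all 15 libraries by quasi-likelihood, with Benjamini-Hochberg adjustment over the siRNAs of a comparison. The fit was also run on simulated counts in which only CL differed from the other groups, unlike these members, and nothing is read from it here. DESeq2 1.42.0, other scalings, filters and designs, and each library left out were alternatives. Figures used matplotlib 3.10.9.

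Named members were the 10 with the highest warm mean, the 5 with the highest Control mean, the 5 with the highest warm mean among those at 0 in all Control and cool libraries, and members called between CL and CC (0). The members and the choices made here were fixed with earlier results of these data known. Replicate numbers were not taken as pairs. Of 30 same-numbered pairs of libraries, 5 had a correlation of deviations over 0.1, which does not settle whether the numbers mark pairs. No 2 replicate libraries agreed within sampling noise.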

Additional observations from a re-analysis of the deposited data

How the results depend on the processing

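Minimums of 2, 5 and 10 reads could not change the number of members, since no count lies between 0 and 10. The number was 485 after thinning without the listing minimum, which seldom takes 10 reads to 0. It was 16 when all 6 warm and no cool libraries were asked for, 214 with at least 4 warm and no cool libraries, 305 at the common level, and 194 after thinning to the smallest siRNA total with 10 reads asked for again. Leaving out 1 library gave 230 to 697. The members' share listed in Control moved from 28.9% to 22.2% at the common level and to 24.0% after thinning to the smallest total with 10 reads asked for again, and was 26.2% to 30.8% with a Control library left out. Leaving out a CC or CL library gave 126 to 267 members with all CL above all CC libraries (26.0% to 55.1%), against 14.0% to 22.5% of all siRNAs. It gave 349 to 420 members with a higher CL mean (72.0% to 86.6%), against 52.7% to 60.6% of all siRNAs.

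With every 0 set to 9 reads, 39 members of 457 were higher and 7 lower in CL than in CC (272 and 242 of 5252 over all siRNAs). With CC replicate 1 also left out it was 37 and 3 (245 and 190 over all siRNAs). With every 0 set to 9 reads, 1 was higher and 1 lower in warm leaves than in Control (0.219% each), against 0.495% and 0.781% of all siRNAs. In cool leaves 14 (3.06%) were lower than in Control, against 3.20% of all siRNAs. The edgeR fit given above had 25. Warm against Control gave 4 members higher of 334 by DESeq2 (160 of 4568 over all siRNAs) and 3 of 447 with only the groups compared (48 of 4657). Cool against Control gave 39 lower of 485 with no filter (311 of 7972), 49 of 237 by DESeq2 (447 of 4259) and 10 of 64 with only the groups compared (291 of 3973). DESeq2 counts are over siRNAs with an adjusted p. Leaving out 1 library gave 0 calls of members between CL and CC and between warm leaves and Control. In cool leaves it gave 8 to 27 lower than in Control (1.66% to 5.71%), against 3.64% to 7.61% of all siRNAs. With the replicate number as a block, 13 members of 457 were lower in cool leaves than in Control (226 of 5252 over all siRNAs) and 0 passed in the other 2 comparisons. Whether the numbers mark pairs was not settled: 7 of 15 libraries correlated best with their own number. The highest correlation of a same-numbered pair was 0.224, between CC and LC replicate 1. Other scalings moved the median log2 difference of all siRNAs between CL and CC from 0.13 to between 0.25 and 0.32. The listing minimum of 10 reads limits every level near it, and the causes of these moves were not tested.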

Other observations

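Below the range rich in warm siRNAs, a gap of another kind stood mainly in the full-light cool leaves. Of 1254 siRNAs numbered 1 to 1500, LC libraries 1, 2 and 3 listed 18.7%, 16.0% and 15.9%, while LL libraries listed 51.2%, 51.0% and 55.8%. From 5501 to 9213 the LC libraries listed 51.4%, 49.4% and 45.9%. CC libraries 1, 2 and 3 listed 58.1%, 38.0% and 50.4% of the siRNAs from 1 to 1500, against 63.9%, 50.9% and 50.7% above 5500. CC replicate 2 and, less so, CC replicate 1 thus also listed fewer from 1 to 1500. As group means, CL and Control listed 66.3% and 42.3% of the siRNAs from 1 to 1500. All 3 LC libraries showed the gap, which at the common level of 0.639 CPM was 16.0% in LC against 41.1% in LL. Of these 1254 siRNAs, 81 were members (6.46%, against 6.08% of all siRNAs). Among the members, 37 pairs had consecutive entry numbers.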
